A study of Mus musculus with 24 samples.

Results

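The effect of a low dose of ionizing radiation (LDIR) on the mammary gland was followed to 8 weeks after exposure in BALB/c mice, a common inbred laboratory strain. The 6 samples described here, of 24 in the series, were chosen by the strain, exposure and time in their labels. They are 3 arrays of mice given 10 cGy of X-rays (LDIR A, B and C) and 3 arrays of sham mice (sham A, B and C). All were females from Jackson Laboratory. They received a single whole-body dose, or the sham procedure, when aged 8 to 9 weeks, and their mammary glands were taken 8 weeks later. Total RNA was measured on Agilent arrays of 1 colour, 1 array for each sample. An array holds 39430 probes for Entrez gene RNAs and 16251 for long noncoding RNAs (lncRNAs). The former are called coding below, although they include probes of noncoding genes such as Malat1 and Neat1. BALB/c mice carry alleles of Prkdc that lower the activity of the DNA-dependent protein kinase, an enzyme that joins broken DNA ends, and the sham mice carry them too. The stage of the estrous cycle of each mouse was not analysed here. The other 18 arrays hold SPRET/EiJ mice and earlier BALB/c samples, taken 2 or 4 weeks after exposure, which are used below only where a change is set beside these times.

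The mammary gland is a tree of luminal and myoepithelial cells within a fat pad, and its growth follows the ovarian cycle. Estrogen and progesterone act on the luminal cells that hold their receptors, and these cells signal to their neighbours through secreted factors such as amphiregulin, WNT4 and RANKL, the product of Tnfsf11. Immediate early genes are a separate group, transcribed within minutes of many stimuli without new protein synthesis. Among them are the subunits of the transcription factor AP-1. Ionizing radiation and growth factors are both known to induce them.

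Levels are given as log2 intensity relative to the 75th percentile of the same array, so that a level of 0 is the intensity that 75% of spots do not exceed, and changes are LDIR minus sham on the log2 scale. A gene rose or fell where it passed both thresholds of the study's methods, an unadjusted limma p under 0.05 and a change over 1.5-fold. No probe had an adjusted p under 0.05 on these arrays (Benjamini-Hochberg over 55681 probes, smallest adjusted p 1.0), and single p-values are not printed below, since an exact two-sided test of 3 arrays against 3 cannot go below 0.1. Of a probe that did not pass on the 6 arrays, only the change is given. Before adjustment, 1033 probes had a p under 0.05 in limma and 1039 in the methods' t-test, which also gave 0 after adjustment. Both counts are below 0.05 of the 55681 probes, the share expected where no probe changes. On this scale the median change of all probes was -0.14, so that relative to the median of all probes each change is 0.14 higher than printed. Probes well above background on all 6 arrays had a median change of -0.05, and those well above background on 1 array of 6 had -1.01.

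The arrays were not alike before any comparison. Sham A, sham B, sham C and LDIR A lay on slide 2 and LDIR B and LDIR C on slide 3. A comparison within a slide thus sets LDIR A alone against the 3 sham arrays. A fit with slide as a block estimates the same contrast, since slide 3 holds no BALB/c sham array. This also holds in the fit of the whole series, where only this LDIR group links slides 2 and 3. The net intensity of the negative control spots, before background subtraction, was 37.2 on sham A and 13.7 to 18.9 on the other 5 arrays. After background subtraction it was -13.8 on sham A and -4.4 to -2.3 on the other 5. The share of probes well above background ran from 65.6% to 72.6%. Sham A and LDIR B also stood apart from the rest in the RNA they held. Over probes they correlated at r = 0.983 with each other and at 0.946 to 0.952 with the other 4, which correlated at 0.987 to 0.991 among themselves. The median level of the 12 T lymphocyte markers was 3.66 on sham A and 4.15 on LDIR B against -2.80 to -1.97 on the other 4, and that of the 11 B lymphocyte markers was 2.83 and 3.05 against -3.33 to -2.84. At 2 and 4 weeks the 2 medians lay between -3.46 and -1.25 on every BALB/c array. Cd3d, a chain of the T cell receptor complex, was at 3.81 and 4.36 on these arrays and at -3.65 to -2.65 on the others, and Glycam1, a mucin of lymph node venules and of milk, at 7.27 and 7.31 against -7.76 to -1.65. The white adipocyte markers were lower there, with a median level of 6.59 on sham A and 6.25 on LDIR B against 7.36 to 7.74. In all, 1870 of the 27389 coding probes counted for this direction were higher by more than 1 on both arrays than on each of the other 4. In the other direction 450 of 28323 were lower, so the 2 counts come from different sets of probes. One such array lies in each group, and 0 members of the T lymphocyte, B lymphocyte or white adipocyte lists passed the thresholds on the 6 arrays. The main results below are therefore also given without sham A and LDIR B, a choice made after seeing the data that leaves 2 arrays against 2. In that fit 3 T lymphocyte markers rose, 1 B lymphocyte marker fell and 0 white adipocyte markers passed, where 2.12% of all coding genes rose and 1.77% fell. Of the 51 named probes that passed on the 6 arrays, 45 also passed without this pair, and the exceptions were Junb, Ier2, Hdc, Cenpf and lncRNAs of chrX and chr16. In bulk tissue, fewer cells of a type and less RNA per cell cannot be told apart.

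Markers of the labelled tissue were measured on every array. The adipocyte hormone Adipoq ranged from 6.46 to 7.91, the luminal keratins Krt8 and Krt18 from 4.49 to 7.37 and the myoepithelial actin Acta2 from 3.95 to 6.58, and all were well above background on the 6 arrays. The median levels of the 14 luminal markers were 1.82, 2.96 and 2.27 on the sham arrays and 2.44, 1.74 and 2.71 on the LDIR arrays, and 0 of the 14 passed the thresholds. The skeletal muscle markers varied most, with medians from -3.83 on LDIR B to 5.55 on LDIR C, and 0 of 13 passed. Without sham A and LDIR B, 2 luminal markers and 1 muscle marker rose, and 0 fell in either list. Hdc, the histidine decarboxylase of mast cells, was the only member of the 14 marker lists to pass on the 6 arrays. Its levels were 1.05, 0.82 and 1.29 on the sham arrays and 0.57, -0.49 and 0.42 on the LDIR arrays. The groups did not overlap. It fell by 0.89, but of 6 fits that each left out an array it passed only in the one without LDIR A (-1.09), with -1.01 to -0.56 in the others. Without sham A and LDIR B the change was -0.56 and did not pass, and 0 of the other 8 mast cell markers passed on the 6 arrays.

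**Figure D1:**
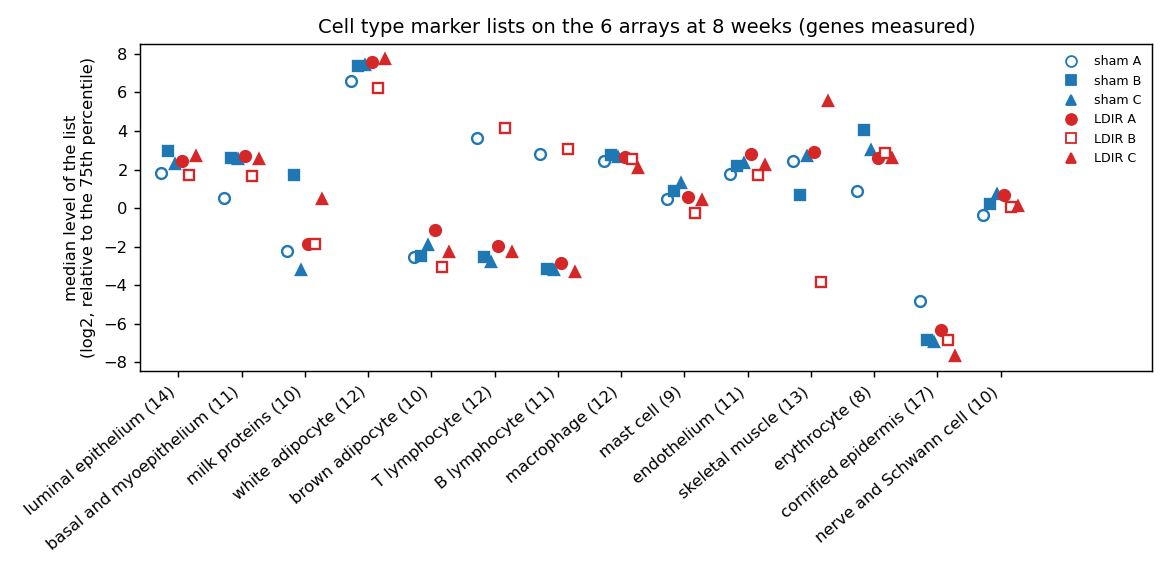
The vertical axis is the median level of each cell type marker list (log2, relative to the 75th percentile of the array), with 1 point for each of the 6 arrays, blue for sham and red for LDIR, and open symbols for sham A and LDIR B. Sham A and LDIR B lie above the other 4 arrays in both lymphocyte lists (3.66 and 4.15 for T lymphocytes) and below them in white adipocytes.

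Most probes that passed were lower after LDIR. Among coding RNA probes 75 were higher, which is 0.19% of those tested, and 518 were lower, which is 1.31%. Among lncRNA probes 18 were higher (0.111%) and 394 lower (2.42%). Few of the lower probes were bright. Of the higher coding probes 43 of 75 were well above background on all 6 arrays, against 104 of 518 lower coding probes, 3 of 18 higher lncRNA probes and 38 of 394 lower lncRNA probes, while 172 of the lower coding and 169 of the lower lncRNA probes were above background on 0 arrays. The split between higher and lower changed with the scaling and the arrays. Of all probes that passed 9.3% were higher, against 48.4% after quantile normalization, 27.3% under normexp background correction and 54.9% without sham A and LDIR B. Of the 188 probes that passed and were well above background on all 6 arrays, 112 also passed in the same direction without these 2 arrays. Normexp background correction was run with an intensity offset of 50, which draws the changes of dim probes towards 0. A dim probe that loses its call there is thus not shown to be unchanged. The genes named below were measured on all 6 arrays unless a sentence says otherwise.

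Several immediate early genes were higher after LDIR. Of the 38 members of the list, 9 rose and 0 fell: the AP-1 subunits Fos, Fosb and Junb, the stress-induced transcription factor Atf3, the nuclear receptor Nr4a1, the antiproliferative gene Btg2, the mRNA-destabilising protein gene Zfp36, Ier2, and Ppp1r15a, a regulatory subunit of the phosphatase that restarts translation after stress. Over 30176 coding genes, each by its brightest probe, 59 rose (0.196%) and 394 fell (1.31%). The median change of the list was 0.59, against -0.09 over all coding genes, and 33 of its 38 members changed by more than 0. Its groups did not overlap in 10 members, the 9 and the AP-1 subunit gene Jund, with LDIR higher in each. The share of all coding genes that did so was 1.03% with LDIR higher and 3.43% with LDIR lower. The list was chosen with earlier results of these data known. Its count was 3 without LDIR A, 5 without sham C, 7 without sham A and 8 or 9 without any other array, and it was 5 with the methods' t-test.

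The promoters of the immediate early genes that changed most are shown because most of the members that rose hold a common short sequence, the core of the cyclic AMP response element. These are RefSeq windows of 300 bases around the annotated start (build GRCm38.p6), written 5′ to 3′ on the strand of the gene. Capitals mark the core TGACG on either strand, which reads CGTCA on the other, and its palindrome TGACGTCA, in which 2 cores overlap.
Fos (chr12:85473640-85473939, plus strand): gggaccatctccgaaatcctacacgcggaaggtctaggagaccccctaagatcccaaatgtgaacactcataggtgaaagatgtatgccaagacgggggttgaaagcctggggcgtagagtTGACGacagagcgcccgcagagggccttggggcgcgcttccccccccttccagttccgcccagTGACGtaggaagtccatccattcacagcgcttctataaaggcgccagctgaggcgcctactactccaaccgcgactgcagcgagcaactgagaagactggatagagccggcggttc
Fosb (chr7:19309996-19310295, minus strand): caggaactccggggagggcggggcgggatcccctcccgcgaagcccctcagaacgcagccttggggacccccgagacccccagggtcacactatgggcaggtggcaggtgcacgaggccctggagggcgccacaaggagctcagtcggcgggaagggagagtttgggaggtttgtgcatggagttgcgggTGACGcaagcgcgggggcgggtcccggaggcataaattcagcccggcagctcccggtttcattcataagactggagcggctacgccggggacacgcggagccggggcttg
Atf3 (chr1:191183284-191183583, minus strand): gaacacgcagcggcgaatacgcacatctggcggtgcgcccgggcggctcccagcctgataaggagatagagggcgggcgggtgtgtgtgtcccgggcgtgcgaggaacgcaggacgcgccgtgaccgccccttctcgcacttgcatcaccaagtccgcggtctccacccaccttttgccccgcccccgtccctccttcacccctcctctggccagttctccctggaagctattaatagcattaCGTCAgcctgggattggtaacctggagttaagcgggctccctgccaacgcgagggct
Nr4a1 (chr15:101266596-101266895, plus strand): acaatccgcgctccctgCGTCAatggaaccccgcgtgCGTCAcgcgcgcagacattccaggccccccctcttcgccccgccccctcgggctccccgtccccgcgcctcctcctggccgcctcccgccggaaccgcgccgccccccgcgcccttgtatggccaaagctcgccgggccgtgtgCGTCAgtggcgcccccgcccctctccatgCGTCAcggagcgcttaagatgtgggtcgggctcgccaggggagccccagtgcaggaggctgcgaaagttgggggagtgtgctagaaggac
Btg2 (chr1:134079106-134079405, minus strand): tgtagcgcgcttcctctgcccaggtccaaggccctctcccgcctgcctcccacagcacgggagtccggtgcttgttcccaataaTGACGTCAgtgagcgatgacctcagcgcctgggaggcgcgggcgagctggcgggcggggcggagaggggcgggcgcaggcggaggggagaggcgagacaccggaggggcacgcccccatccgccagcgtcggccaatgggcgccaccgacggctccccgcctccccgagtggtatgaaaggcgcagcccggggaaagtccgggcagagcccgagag
A promoter was found for 8 of the 9 genes, and 7 of them hold the core: Atf3, Btg2, Fos, Fosb, Junb, Nr4a1 and Ppp1r15a, but not Zfp36. Btg2 and Ppp1r15a hold the palindrome. Among 32851 promoters of the same length, 20.8% hold the core and 1.79% the palindrome. Among the genes named here that fell, 5 of 20 with a promoter hold the core. Among the other named genes that rose, 3 of 7 do (Cck, Plk3 and Smad1). Immediate early genes that did not rise were not counted apart. In Nr4a1 the core occurs 4 times, starting 233, 213, 69 and 40 bases before the start site. A match is a description of the sequence and not a measured site.

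Atf3 was at -1.84, 0.16 and -0.72 on sham A, B and C and at 3.42, 0.57 and 1.26 on LDIR A, B and C. The groups did not overlap, and LDIR A stood well above the rest. The change was 2.55 (SE 0.87), the largest among the coding probes that rose and were well above background on all 6 arrays, with 2.62 without sham A and LDIR B. It passed in 3 of the 6 fits that left out a single array, and not without sham A (2.03), sham C (2.59) or LDIR A (1.72).

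Fosb was at -1.33, -0.37 and -0.55 on the sham arrays and at 3.41, 0.59 and 1.3 on the LDIR arrays. Again LDIR A was the highest, and LDIR B and C lay above every sham array. The gene rose by 2.52 (SE 0.76), passed in each fit that left out 1 array (1.69 to 3.11), and rose by 2.82 without sham A and LDIR B.

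Fos, another AP-1 subunit gene, was at -0.34, 2.58 and 1.93 on the sham arrays and at 4.92, 3.14 and 3.44 on the LDIR arrays. Here sham A was the low value and LDIR A the high, and the remaining 4 arrays lay within a narrow band with LDIR on top. The change was 2.44 (SE 0.88) and 1.92 without sham A and LDIR B. It did not pass without LDIR A (1.90) or LDIR C (2.64).

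Nr4a1, an orphan nuclear receptor, was at 2.75, 3.21 and 2.86 on the sham arrays and at 5.29, 4.05 and 4.96 on the LDIR arrays. All 3 LDIR arrays were clearly above the sham arrays, which lay close together. It rose by 1.83 (SE 0.38), passed in each fit that left out 1 array (1.57 to 2.19), and the change was 2.09 without sham A and LDIR B and 2.36 on slide 2 alone.

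Btg2, which p53 also induces, was at 1.91, 1.79 and 1.71 on the sham arrays and at 3.30, 2.78 and 2.47 on the LDIR arrays. The sham arrays differed by less than the gap to the lowest LDIR array. It rose by 1.05 (SE 0.29), passed in each fit that left out 1 array (0.82 to 1.23), and on slide 2 alone the change was 1.49. Fosb, Nr4a1 and Btg2 passed under each of the 22 alternative settings tried.

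The other 4 members rose less, by 1.00 (Zfp36), 0.88 (Junb), 0.86 (Ier2) and 0.80 (Ppp1r15a). Without LDIR A none of the 4 passed, with changes of 0.75 (Zfp36), 0.62 (Junb), 0.63 (Ier2) and 0.78 (Ppp1r15a). Each also lost its call without other arrays. These were sham A, sham B and LDIR C for Zfp36 (0.75 or more), the sham arrays and LDIR B for Junb (0.74 to 1.02), sham A, sham C and LDIR B for Ier2 (0.68 to 0.92), and sham B, sham C and LDIR B for Ppp1r15a (0.68 to 0.75). Ppp1r15a was at 2.80, 2.37 and 2.23 on the sham arrays and at 3.30, 3.44 and 3.06 on the LDIR arrays. It differed from the others in that LDIR B, not LDIR A, was the highest. Junb and Ier2 did not pass without sham A and LDIR B (0.74 and 0.75). Members that did not pass on the 6 arrays included Jun (1.17), Ctgf (1.18), Csrnp1 (0.89), Dusp1 (0.84) and Egr1 (1.15). For Egr1, a zinc finger transcription factor, sham B at 4.53 lay within the LDIR range of 4.28 to 5.73 and sham C at 4.27 at its lower edge. Without sham A and LDIR B, 12 members rose, among them Jun (1.19) and Csrnp1 (1.39), and Myc fell (-0.78). Over all coding genes 2.12% rose and 1.77% fell in that fit.

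**Figure D2:**
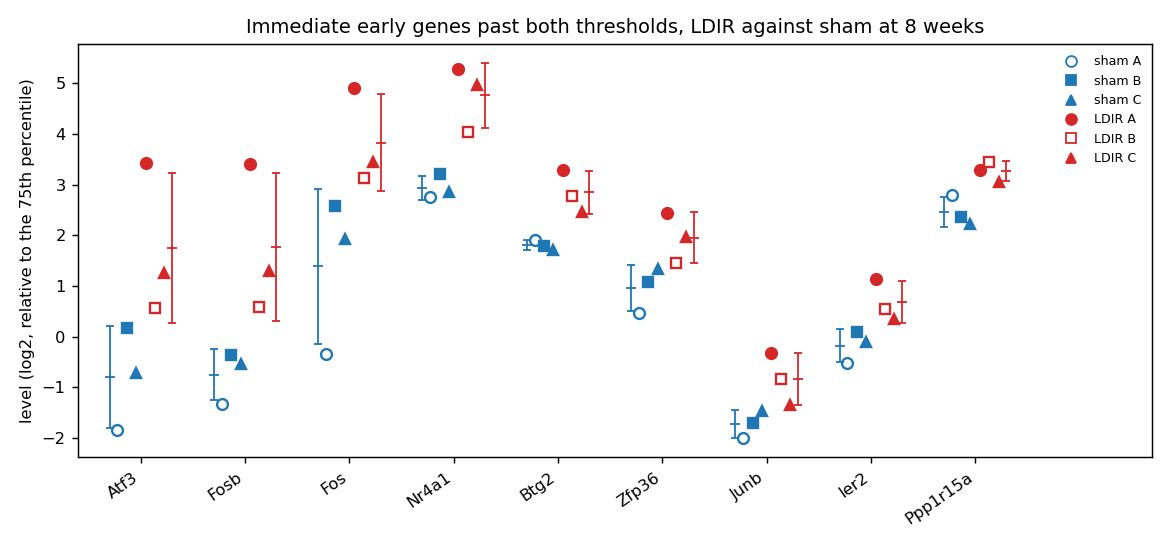
Levels of the 9 immediate early genes past both thresholds on each array (log2, relative to the 75th percentile), with the mean and SD of each group of 3 arrays beside the points and open symbols for sham A and LDIR B. The LDIR arrays lie above the sham arrays in each gene, and LDIR A is the highest in all but Ppp1r15a.

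The highest values of the list were on LDIR A. The median level of the list was 0.63, 1.28 and 1.44 on the sham arrays and 2.46, 1.48 and 1.65 on the LDIR arrays. All 6, sham arrays included, lay above the BALB/c arrays at 2 and 4 weeks, whose medians ran from -0.39 to 0.51. The 2-week arrays and 2 of the 4-week sham arrays lay on slide 1, so time and slide are partly mixed. On slide 2, which holds 4 arrays of each of the later times, those of 8 weeks ran from 0.63 to 2.46 and thus also lay above those of 4 weeks. On slide 2 alone, which sets LDIR A against the sham arrays, the median change was 0.99.

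Areg and Wnt4, a pair of hormone response genes, fell. Of 23 measured members of the list of hormone receptors and hormone response genes, 0 rose and 3 fell: Areg, Wnt4 and Prl. Over all coding genes 1.31% fell. The groups did not overlap in 6 members, each lower after LDIR, as was the case in 3.43% of all coding genes. The number that fell was 1 without sham B, 2 without sham C, and 4 without sham A and LDIR B. The median change of the list was 0.03, and 12 of 23 members were above 0. Areg, Prl, Wnt4, Pgr and Greb1 also stand in the study's own table of regulators at this time, which was chosen on these samples, so their values here are not independent evidence of a direction.

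Areg encodes amphiregulin, the ligand of the epidermal growth factor receptor through which estrogen drives duct growth, and its probe lies at chr5:91570090-91570149 (mm9). Its levels were 0.86, 2.38 and 2.56 on the sham arrays and -0.54, -0.04 and -0.32 on the LDIR arrays. The groups were well separated, and the nearest sham array was sham A. It fell by 2.23 (SE 0.50), passed in each fit that left out 1 array (-2.77 to -1.92), and without sham A and LDIR B the change was -2.90. On slide 2 alone the change was -2.47 and did not pass. Its promoter is shown because it was the only one among the genes named here that fell to hold the palindrome of the cyclic AMP response element, and it holds the core once more.
Areg (chr5:91139349-91139648, plus strand): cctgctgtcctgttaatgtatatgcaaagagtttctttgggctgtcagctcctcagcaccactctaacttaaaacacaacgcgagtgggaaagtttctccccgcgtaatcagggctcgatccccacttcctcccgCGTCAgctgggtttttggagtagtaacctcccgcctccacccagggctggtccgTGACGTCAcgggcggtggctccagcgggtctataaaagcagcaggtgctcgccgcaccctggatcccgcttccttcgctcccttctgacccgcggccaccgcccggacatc

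Wnt4, the secreted factor through which progesterone drives side branching, was at 1.5, 2.32 and 2.09 on the sham arrays and at 0.40, 0.67 and 1.38 on the LDIR arrays. LDIR C lay just below sham A, and the groups did not overlap. It fell by 1.15 (SE 0.37) but passed in only 2 of 6 fits that left out an array, failing without sham B (-0.98), sham C (-1.10), LDIR A (-0.95) or LDIR B (-1.08). A dimmer second probe of Wnt4 changed by -0.92.

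The receptors for these hormones were measured as well. Pgr, the progesterone receptor, has 3 probes on the array, and the LDIR arrays were below the sham arrays in each. The brightest was at 0.10, 0.19 and 0.07 on the sham arrays and at -0.15, -0.91 and -0.54 on the LDIR arrays. It changed by -0.65 and the dimmer probes fell by 1.02 and 1.04, so the call depends on the probe. Esr1, the estrogen receptor, changed by 0.04 with a SE of 0.56, and Prlr, the prolactin receptor, by -0.18 with a SE of 0.31. For Esr1 the LDIR arrays alone had an SD of 0.85.

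Greb1, an estrogen-induced cofactor of the estrogen receptor, is held by 2 probes. The dimmer, which fell by 1.81 (SE 0.37), was at 1.0, -0.06 and 0.37 on the sham arrays and at -0.96, -1.46 and -1.71 on the LDIR arrays. The brighter, with the higher mean over the 24 arrays, changed by -0.52. In both, every LDIR array was below every sham array. Prl, which encodes prolactin, was not well above background on any of the 6 arrays, so no fold is given, and it did not pass without sham B.

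For Tnfsf11, which encodes RANKL, LDIR B stood apart from the other LDIR arrays. Its levels were -0.73, -1.34 and 1.75 on the sham arrays and -4.36, 0.25 and -4.62 on the LDIR arrays. LDIR A and LDIR C were far below the sham arrays while LDIR B lay among them. The change was -2.80 on the 6 arrays and did not pass, whereas it passed without sham A and LDIR B (-4.70) and on slide 2 alone (-4.26). RANKL is also made by T lymphocytes, whose markers were high on LDIR B, and their part in its level there was not tested. In that fit S100g, a calcium-binding protein gene, also passed (1.83), though it was well above background on no sham array. The remaining members, among them Cited1, Foxa1, Gata3, Elf5, Stat5a and Igf1, did not pass, with changes between -1.48 (Calca, whose sham levels ran from -3.34 to 3.68) and 0.91 (Cited1).

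Fkbp5, Zbtb16 and Hif3a, genes that glucocorticoids induce in many tissues, fell as well. Of 16 members of the glucocorticoid-induced list 0 rose and 3 fell, against 1.31% of all coding genes that fell. The median change of the list was -0.21, and 5 members were above 0. The median was 0.04 on slide 2 alone and with slide as a block, both of which set LDIR A alone against the sham arrays. It was 0.01 without LDIR B, where 3 fell and 1 rose. Fkbp5 encodes a co-chaperone of the glucocorticoid and progesterone receptors. Its probe lies at chr17:28536060-28536119 (mm9). It was at 3.94, 3.70 and 3.90 on the sham arrays and at 1.59, 2.56 and 1.82 on the LDIR arrays, with means of 3.85 ± 0.13 and 1.99 ± 0.51 (SD, 3 arrays each). Sham A lay with the other sham arrays here, and the highest LDIR array was LDIR B. It fell by 1.86 (SE 0.32), passed under each of the 22 alternatives, and the change was -2.26 on slide 2 alone. In a fit of all 24 arrays it was the only probe of the array with an adjusted p under 0.05 (0.0495).

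Zbtb16, a zinc finger transcription factor, was at 2.76, 4.00 and 4.29 on the sham arrays and at 2.66, 2.04 and 2.10 on the LDIR arrays, and sham A came close to LDIR A. It fell by 1.42 (SE 0.46) but lost its call without sham B (-1.26), sham C (-1.12), LDIR B (-1.31) or LDIR C (-1.33). Hif3a, a hypoxia-inducible factor subunit, was at -1.80, -1.07 and -0.68 on the sham arrays and at -2.79, -3.03 and -2.83 on the LDIR arrays. The LDIR arrays lay close together and below all sham arrays. It fell by 1.70 (SE 0.34) and passed in each fit that left out 1 array, but 2 dimmer probes of Hif3a changed by -0.55 and 0.60 and did not pass. Without sham A and LDIR B, Tsc22d3 also fell (-0.73) and Pdk4 rose (0.85), so members of the list moved in both directions in that fit.

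**Figure D3:**
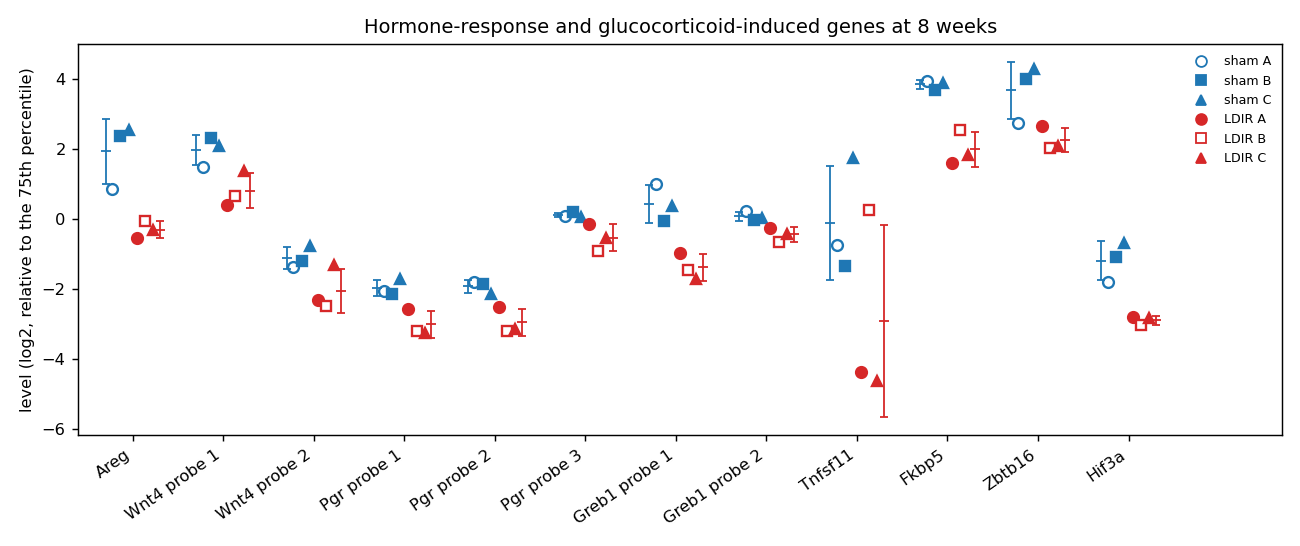
Levels of hormone-response and glucocorticoid-induced genes on each array (log2, relative to the 75th percentile), with probes of 1 gene shown separately, the mean and SD of each group of 3 arrays beside the points and open symbols for sham A and LDIR B. Every LDIR array lies below every sham array for Areg, the first probe of Wnt4, the probes of Pgr and Greb1, Fkbp5, Zbtb16 and Hif3a, while LDIR B lies among the sham arrays for Tnfsf11.

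A pair of fibrinogen genes rose too. Fgb and Fgg encode the beta and gamma chains of fibrinogen, the clotting protein that the liver secretes in the acute phase. Fgb was at -3.48, -3.56 and -1.94 on the sham arrays and at 0.34, -0.97 and -1.18 on the LDIR arrays. The closest pair was sham C and LDIR C. It rose by 2.39 (SE 0.62) and passed under each of the 22 alternatives. Fgg rose by 1.86 (SE 0.69) but lost its call without sham A (1.21), LDIR A (1.52) or LDIR C (1.77). The other 18 members of the acute phase and mucosal defence list, Fga among them, did not pass, and the median change of the list was 0.03.

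Cck, which encodes the peptide hormone cholecystokinin, was at -1.18, -1.04 and -2.34 on the sham arrays and at 1.43, -0.37 and 1.15 on the LDIR arrays. LDIR B was the nearest to the sham arrays. It rose by 2.26 (SE 0.60), passed under each of the 22 alternatives, and the change was 2.98 without sham A and LDIR B. Upk3a, a membrane protein gene of the urothelium, rose by 1.80 (SE 0.59) but lost its call without sham C (1.78), LDIR A (1.85) or LDIR C (1.66). Together with Atf3, Fosb, Fos, Nr4a1, Fgb and Fgg these are the 8 coding RNAs that rose most among those well above background on all 6 arrays. Smad1, a BMP signal transducer, was above background on the LDIR arrays alone for 1 probe, at least 1.45-fold higher, while its brighter probes changed by 0.03 and -0.18. Under normexp background correction the change of the first probe was 0.06 and did not pass. The transcript ENSMUST00000173840 was likewise at least 1.47-fold higher, but its change turned to -0.09 under normexp background correction.

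The coding RNAs that fell most, beside Areg, Fkbp5, Greb1 and Hif3a, were Sprr2a2, Ptpn5, Gpat2 and Fam107a. Gpat2 encodes a mitochondrial acyltransferase of glycerolipid synthesis. Its levels were -0.55, -0.08 and -1.02 on the sham arrays and -2.71, -2.32 and -2.44 on the LDIR arrays, so that the groups were separated by more than the spread of either. It fell by 1.94 (SE 0.31) and passed under each of the 22 alternatives. The other 3 were held by several probes that did not move together. Fam107a, an actin-associated protein gene that glucocorticoids also induce, fell by 1.82 (SE 0.31) by 1 probe and passed under each of the 22 alternatives, while a brighter probe changed by -0.08. Ptpn5, a tyrosine phosphatase gene, fell by 2.90 (SE 0.94) by 1 probe, which did not pass without LDIR C (-2.32). A dimmer probe of Ptpn5 was at least 4.42-fold lower (1.77-fold without sham A, 7.31-fold without sham B and 6.65-fold without sham C) and did not pass without sham A (-1.76), LDIR A (-3.09), LDIR B (-3.67) or LDIR C (-2.46), while the brightest changed by 0.24. Sprr2a2, a cornified envelope protein gene, was at -2.34, -3.15 and -1.05 on the sham arrays and at -6.03, -5.01 and -5.37 on the LDIR arrays. It fell by 3.29 (SE 0.59) by this probe of low signal and changed by 0.03 for a probe with levels from 7.12 to 7.91. The small proline-rich genes are near-identical copies, so these probes may not report the same transcript.

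Some coding RNAs had a signal well above background only in the sham group, which gives a lower bound of the fall. They were Olfr1394 (at least 2.47-fold), Usp51, a deubiquitinase gene (at least 2.08-fold), and Ift46, a cilium transport gene (at least 2.08-fold). A brighter probe of Ift46 changed by 0.17. Olfr1394, an olfactory receptor gene, did not pass without sham B (-2.04), LDIR A (-1.86), LDIR B (-1.73) or LDIR C (-1.87). Sham A held the highest level of each of the 3. Neither Usp51, Ift46 nor Olfr1394 passed under normexp background correction, whose offset shrinks the changes of probes this dim. In all, 15 coding and 14 lncRNA probes were above background on the 3 sham arrays only and fell, and 4 coding and 0 lncRNA probes were above background on the 3 LDIR arrays only and rose, 2 of the 4 without overlap of the groups. The bound for Olfr1394 was 1.43-fold without sham A, that for Usp51 1.46-fold and that for Ift46 1.58-fold.

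The study's table of regulators at this time holds 18 genes, of which 16 were measured. Of these 2 rose, Fgb and Pml, and 10 fell, where 0.196% of all coding genes rose and 1.31% fell. The median change was -1.0, but 6 of the 16 were well above background on no array. The number that fell was 4 under normexp background correction (median -0.29) and 4 after quantile normalization (-0.67). It was 5 among probes detected on at least 3 arrays (-0.58). With slide as a block, where LDIR A alone is set against the sham arrays, the median was -0.77. Pml, the organiser of promyelocytic leukaemia nuclear bodies, was at 2.56, 2.69 and 2.70 on the sham arrays and at 3.60, 2.96 and 3.38 on the LDIR arrays. It rose by 0.66 (SE 0.26) but of 6 fits that each left out an array passed only the one without LDIR B (0.84), with 0.52 to 0.69 in the others. A dimmer probe of Pml changed by -0.09. Falls beside those above were Ms4a4a (-0.97, and not past without sham B, sham C or LDIR A), a membrane protein gene of macrophages, and C5ar1 (-1.24), the complement C5a receptor gene, well above background on 5 of 6 arrays. The macrophage marker list had 0 of 12 members past the thresholds on the 6 arrays. Without sham A and LDIR B 2 of the 12 fell and 0 rose, with a median change of -0.35, where 1.77% of all coding genes fell. Syt4, 8030451A03Rik (not without LDIR C), Il23a, Far2 and Lhx4 passed as lower but were below background on all 6 arrays, so no fold is given. As the table was drawn up on these samples, its count is not independent evidence of its direction.

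Genes that answer DNA damage were measured as well. Of 26 measured p53 targets 2 rose, Btg2 and Plk3, and 0 fell, where 0.196% of all coding genes rose, and the median change of the list was 0.10. Btg2 is also counted among the immediate early genes. Plk3, a stress-activated kinase gene, was at 0.72, 0.30 and 0.53 on the sham arrays and at 1.55, 0.91 and 1.13 on the LDIR arrays, so that the groups did not overlap. It rose by 0.68 (SE 0.27). Plk3 did not pass without sham B (0.57), sham C (0.69), LDIR A (0.50) or LDIR C (0.71). Both genes are induced by p53 and by growth stimuli. Of 31 genes of DNA double strand break repair 0 passed in either direction, with changes from -0.88 to 0.35 and a median of -0.03.

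Proliferation genes were lower on LDIR A than on the other arrays. Of 30 members 0 rose and 1 fell, where 1.31% of all coding genes fell. The median change was -0.66, with 1 member above 0. The median levels were 0.33, -0.24 and 1.15 on the sham arrays and -1.16, 0.27 and 0.35 on the LDIR arrays, so the groups overlapped. The BALB/c arrays at 2 and 4 weeks had medians from -1.86 to -1.03, so LDIR A lay within their range and the rest above it. Time and slide are partly mixed in this comparison. The median change was -0.15 without LDIR A, -0.28 without sham C and -1.67 on slide 2 alone. It was also -1.67 with slide as a block, here and in a fit of all 24 arrays. These fits are not separate evidence, since each sets LDIR A alone against the sham arrays. The number that fell was 0 without LDIR A, without sham C or under normexp background correction. Cenpf, a kinetochore protein gene, was the member that fell. It was well above background on 2 sham arrays and no LDIR array, at least 1.33-fold lower (with no bound above 1 without sham A), and it did not pass without sham A and LDIR B (-1.02), without sham C (-1.92), LDIR A (-1.63) or LDIR B (-1.67).

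In the remaining lists 0 members passed in either direction. They were the heat shock proteins (16 genes, median change -0.17), the circadian clock (17, 0.06), type I interferon-stimulated genes (24, -0.02), antioxidant and NRF2 targets (22, -0.04), fatty acid synthesis (20, -0.17) and collagens and matrix (22, -0.15). Without sham A and LDIR B the clock genes Nr1d1 (1.15) and Bhlhe40 (0.80) rose and the chaperone genes Hsph1 (-1.43) and Dnaja1 (-0.64) fell. Olfactory and vomeronasal receptors, which mammary tissue is not known to use, give a view of the dim probes. Of 1357 such genes 2 were higher and 35 lower, where 0.196% of all coding genes rose and 1.31% fell. Their median change was -0.42, and 642 were well above background on no array. Their median level was -5.13 on sham A and -7.87 to -7.33 on the other arrays. Without sham A and LDIR B the median change was 0.01, with 34 higher and 27 lower, where 2.12% of all coding genes rose and 1.77% fell.

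**Figure D4:**
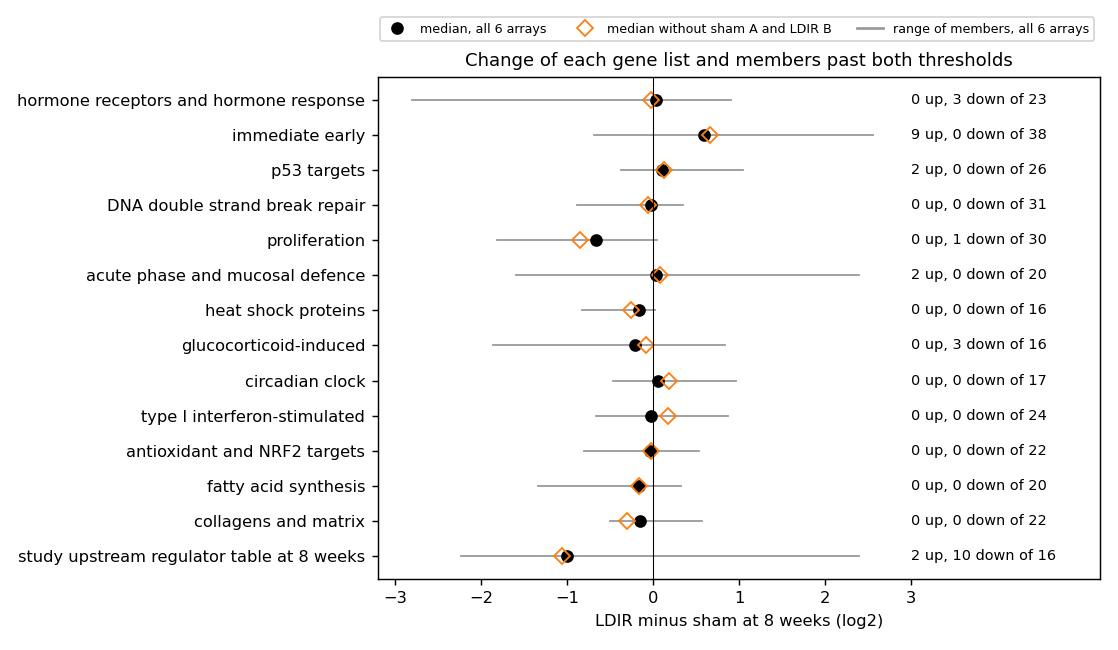
Change of each gene list, LDIR minus sham on the log2 scale, with the median of its members on all 6 arrays (filled), the median without sham A and LDIR B (open diamond) and the range of members (line), and at the right the members past both thresholds. The immediate early list has the highest median (0.59) and the proliferation list and the study's own table have the lowest (-0.66 and -1.0).

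LncRNAs that rose were few. Only 3 lncRNA probes that rose were well above background on all 6 arrays. The first, chr10:66383049-66386347_F, a transcript named by its locus (mm9), was at -3.29, -3.62 and -3.12 on the sham arrays and at -2.32, -2.80 and -1.61 on the LDIR arrays. It rose by 1.1 (SE 0.37), but did not pass without sham B (0.96), LDIR A (1.14) or LDIR C (0.78), while its other probes were below background. The remaining 2 read the same RNA. NEAT2 is another name of Malat1, an abundant nuclear lncRNA, and the probe named chr19:5771425-5848475_R overlaps the NEAT2 probe on the same strand. Their sequences are shown to make this visible, with the 39 bases that both hold in capitals (positions in mm9).
NEAT2 (chr19:5795773-5795832, minus strand): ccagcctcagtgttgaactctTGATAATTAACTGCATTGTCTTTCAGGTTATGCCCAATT
chr19:5771425-5848475_R (chr19:5795752-5795811, minus strand): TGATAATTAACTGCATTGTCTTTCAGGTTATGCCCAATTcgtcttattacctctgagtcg

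The NEAT2 probe was at 0.85, 0.98 and 1.32 on the sham arrays and at 1.81, 1.5 and 1.74 on the LDIR arrays. The groups did not overlap. It rose by 0.63 (SE 0.24) and the overlapping probe by 0.60 (SE 0.24). In all, 3 more probes of this RNA, 2 named NEAT2 and 1 named Malat1, changed by 0.60, 0.58 and 0.56 and did not pass. The 5 probes gave changes of 0.56 to 0.63 whether or not they passed, and the groups were apart in each. They all lie within chr19:5795713-5795892, and the Malat1 probe has the same position as a NEAT2 probe. Their agreement is therefore not that of separate parts of the RNA. Both calls were lost in most fits that left out an array: the NEAT2 probe passed only without sham C (0.77) or LDIR B (0.73), with 0.53 to 0.60 otherwise, and the overlapping probe only without LDIR B (0.68). Neat1, the neighbouring lncRNA that builds paraspeckles, changed by -0.09.

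LncRNAs that fell were dim. The 4 with the largest falls among those measured on all 6 arrays passed with changes of -1.65 (chrX:47890565-47915775_F), -1.41 (chr9:121845920-121858120_F), -1.24 (chr1:92412246-92423471_F) and -1.16 (chr6:134875724-134931975_F). Their sham means lay between -3.86 and -2.93, far below the 75th percentile of the array. Under normexp background correction the 4 changes were -0.74, -0.64, -0.43 and -0.49, and the chr1 and chr6 transcripts did not pass. With slide as a block, where LDIR A alone is set against the sham arrays, the 4 changes were -0.66, -2.05, -0.9 and -1.36 in the same order. The chrX transcript passed only without sham B or LDIR A (-1.95 and -2.14, against -1.65 to -1.18 without another array), did not pass without sham A and LDIR B (-1.33), and the chr6 transcript did not pass without LDIR A (-1.06). Probes of the chr9 transcript disagreed, since others were at least 3.21-fold and, with 2 of 3 sham arrays above background, at least 2.47-fold lower (1.68-fold without sham A for the second), while its brightest probes changed by 0.17 and 0.10. The brightest probe of the chr1 transcript changed by -0.29. Only a bound is known for chr16:30195156-30200385_F (at least 3.88-fold lower, 2.85-fold without sham A, 6.96-fold without sham B and 2.95-fold without sham C). It did not pass without LDIR B or without sham A and LDIR B. Its other probes were above background on sham A alone, and changed by -1.5 and -1.64 without passing. Without sham A and LDIR B they changed by 0.01 and 0.03. For chr6:118250184-118258737_R too only a bound is known (at least 2.58-fold lower, 1.49-fold without sham A). This transcript did not pass without LDIR B or LDIR C. It changed by -0.53 under normexp background correction and did not pass there.

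The changes at 8 weeks were set beside those at 2 and 4 weeks, where 3 LDIR and 3 sham BALB/c arrays were compared in the same way. The 3 times share no array, but they differ in slide as described above, and the tests below do not adjust for it. At 4 weeks 0 of the 38 immediate early genes rose and the median change was -0.20, and at 2 weeks 0 rose with a median of 0.04, while 2.03% of all coding genes rose at 4 weeks and 0.782% at 2 weeks. The difference between times was tested as an interaction. The LDIR change at 8 weeks was above that at 4 weeks in 10 immediate early genes at an unadjusted p under 0.05, and above that at 2 weeks in 8, against 0.819% and 0.365% of all coding genes. No adjusted p under 0.05 was reached by these genes. Over all probes 3420 differences from 4 weeks had an unadjusted p under 0.05 in limma, of which 1 passed after adjustment, and 2039 differences from 2 weeks, of which 0 passed. Of the 55673 probes tested, a share of 0.05 is expected where no probe differs. The count for 4 weeks is above that share and the count for 2 weeks below it.

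For Nr4a1 the change was -0.77 at 4 weeks and -0.18 at 2 weeks, against 1.83 at 8 weeks, and the difference was 2.60 from 4 weeks and 2.01 from 2 weeks. For Fosb it was 3.08 and 2.39. Fkbp5 changed by -0.07 at 4 weeks and -0.51 at 2 weeks, with differences of -1.79 and -1.34. Areg changed by -0.96 at 4 weeks and -0.19 at 2 weeks, and the differences of its 8-week change from these were -1.28 and -2.05. At 4 weeks the fibrinogen genes had changes of the opposite sign, where Fgb changed by -2.94 and Fgg by -2.80, and the differences were 5.33 and 4.66. Upk3a likewise changed by -3.53 at 4 weeks, a difference of 5.33. The differences from both times had an unadjusted p under 0.05 in limma for Nr4a1, Fosb, Fkbp5, Fgb and Fgg, as did the difference from 4 weeks for Upk3a, and those of Areg did not. None of them had an adjusted p under 0.05.

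**Figure D5:**
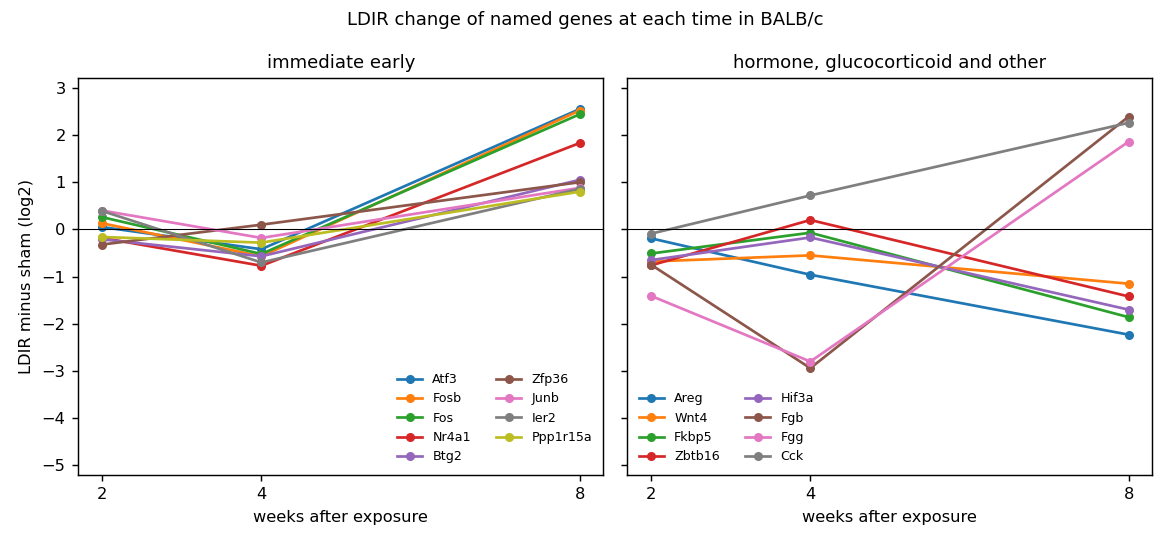
LDIR minus sham (log2, vertical axis) for named genes in BALB/c against weeks since exposure (2, 4 and 8, horizontal axis), with 1 point for each fitted change and lines that join the points of a gene. The 9 immediate early genes lie between -0.77 and 0.40 at 2 and 4 weeks and between 0.80 and 2.55 at 8 weeks.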

How the data were processed

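Each sample was read on an Agilent SurePrint mouse array of 60-base probes with Agilent Feature Extraction, and the authors deposited the scanner intensity of each spot (background-subtracted processed signal) and a log2 table scaled to the 75th percentile of each array. Here the log2 of the processed intensity minus the array's 75th percentile was computed. It was compared with the authors' log2 values, with outlier spots kept and differences centred on each probe and array. After this centring 99.86% of values lay within 0.01, and offsets of a whole probe or array were not compared. Control spots and 925 outlier spots were left out, no spot was saturated, and 55681 probes were tested with limma 3.58.1 (R 4.3.3), checked on simulated data, on the 3 LDIR and 3 sham arrays. A probe passed at a change over 1.5-fold with p under 0.05 before adjustment, as the methods set, and p-values were also adjusted (Benjamini-Hochberg, 55681 probes). An exact permutation test of 3 against 3 could not go below p = 0.1, and the number of arrays limits the precision. Labels and methods call the 3 samples biological replicates, 1 array each.

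Gene lists were read by 1 probe per gene, the brightest over the 24 arrays. Genes were named by rule: members of the hormone and immediate early lists, the 8 coding RNAs and 4 lncRNAs with the largest changes in each direction past the thresholds and well above background on all 6 arrays, the 4 coding RNAs and 3 lncRNAs with the largest bounds among those above background in only the higher group (all of these without overlap of the groups), and members of other lists past the thresholds. The members and lists were chosen with earlier results of these data known. For a probe above background in only the higher group, "at least" gives the bound against the lowest signal well above background on each array of the other group. Another 22 settings were tried, and those without sham A and LDIR B were chosen after seeing the data. Among them, the fit within slide 2 and those with slide as a block give the same contrast, LDIR A alone against the sham arrays. Normexp used an offset of 50. Promoters are from RefSeq (GRCm38.p6), whose coordinates are not those of the probes (mm9). Figures were drawn with matplotlib 3.10.9.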

Additional observations from a re-analysis of the deposited data

Results flagged for a closer look

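A lncRNA probe at chr11:68211684-68211743 (mm9) had the only difference between times with an adjusted p under 0.05: its LDIR change at 8 weeks was 2.63 below that at 4 weeks (-2.63, SE 0.31, adjusted p = 0.0289 in limma). It was -6.61, -6.26 and -6.35 on the sham arrays and -7.15, -7.23 and -7.79 on the LDIR arrays at 8 weeks, and -7.80, -7.63 and -7.50 on the sham arrays and -5.84, -6.17 and -5.98 on the LDIR arrays at 4 weeks. The probe was well above background on none of these 12 arrays, so neither change is a measured level, and under normexp background correction its 8-week change was -0.22.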

How the results depend on the processing

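The counts of probes past both thresholds, 412 lncRNA and 593 coding on the 6 arrays, moved with most settings, and the cause was not tested. For lncRNA probes and coding probes they were 16 and 123 under normexp background correction, 168 and 361 for probes well above background on at least 3 arrays (fewer probes tested), 217 and 375 by the methods' t-test, 1457 and 2434 with array weights (0.141 for sham A, 0.371 for LDIR B), 169 and 360 with slide as a block, 130 and 264 within slide 2, and 1205 and 1658 in a fit of all 24 arrays. With a variance trend 221 lncRNA probes passed, and with 24 arrays and slide as a block 1123 coding probes. Leaving out 1 array gave 199 (without LDIR C) to 763 (without sham B) lncRNA and 403 (without LDIR C) to 1079 (without sham B) coding probes. Without sham A and LDIR B, chosen after seeing the data, 866 and 1565 passed, 561 of them shared with the 1005, and 73 lncRNA probes with normexp as well. Adjusted p-values under 0.05 numbered 0 on the 6 arrays, 1 with 24 arrays (Fkbp5, 0.0495) and 22 with 24 arrays and slide. Differences from 4 weeks with an adjusted p under 0.05 numbered 1, against 0 under normexp or quantile normalization, 8 with slide, and 0 (without LDIR B) to 21 (without sham B) on leaving out an array. Differences from 2 weeks numbered 0, against 4 with slide and 0 to 18 (without sham B). ENSMUST00000173840 turned from 1.14 to -0.09 under normexp. By the methods' t-test 38 of the 51 named probes that passed kept their call. Of 51 named probes that passed, 51 kept their call with the authors' log2 values or outlier spots kept. The number was 33 under normexp, 42 after quantile normalization, 45 without sham A and LDIR B, and 32 to 40 without 1 array.

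The replicate letters were not treated as pairs. Deviations of same-letter arrays from their group means correlated at -0.559 (A), -0.567 (B) and 0.544 (C). The highest correlation of any LDIR and sham array was 0.718, between LDIR B and sham A, which both held high lymphocyte markers. As these arrays stood apart from the rest, the check cannot exclude a pairing. With the replicate letter as a block 605 lncRNA and 760 coding probes passed, 3 immediate early genes rose in place of 9, and 37 of the 51 named probes kept their call.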
